A study of Mus musculus with 25 samples.

Results

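The genes of the translation initiation and elongation factors were followed in HSLAM cells, the sorted bone marrow population (LSK+ CD150+ CD48-) that is enriched for long-term hematopoietic stem cells. Members were all genes of the deposited expression table whose symbol starts with Eif or Eef followed by a digit, without the Eif2ak kinase genes, *Eif2s3x* and *Eif2s3y*, which gave 66 of 23116 genes. Of these 66, 59 carry ordinary symbols and 7 carry pseudogene symbols. The RNA-seq samples came from adult male C57BL/6 mice of 2 groups with 3 libraries each, which the study describes as littermates. Mice of the *Znf143 f/f* group carried loxP sites at both alleles of *Znf143* and no Cre, and mice of the *Znf143 -/-* group carried the same floxed alleles together with *Rosa26ERT2-Cre*, a tamoxifen-inducible Cre recombinase driven from a locus that is active in nearly all tissues. Both groups were given tamoxifen, so the drug is shared, whereas Cre is present in the *Znf143 -/-* group only and its effect cannot be told apart from that of the deletion. This Cre is not restricted to blood cells, and deletion in other tissues was not measured here. The deleted genotype bears the name of a CTCF knockout in the sample labels, whereas the study describes a *Znf143* deletion. The comparison asked how transcript levels of the translation machinery differed after loss of ZNF143, a zinc finger protein that binds promoters.

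Translation starts when the 40S ribosomal subunit, carrying eIF1, eIF1A, eIF3, eIF5 and the initiator tRNA delivered by eIF2, is placed on the mRNA cap by eIF4F, the complex of the cap-binding protein eIF4E, the helicase eIF4A and the scaffold eIF4G. After start codon recognition the GDP left on eIF2 is exchanged by eIF2B, and eIF5B joins the large subunit. Elongation is carried by eEF1A, which brings aminoacyl-tRNAs and is recharged by the eEF1B complex, by eEF2, which moves the ribosome, and by eIF5A, which relieves stalled ribosomes. Hematopoietic stem cells are known for a low rate of protein synthesis, which the eIF4E-binding proteins help to hold down.

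Levels are given as scaled FPKM, the fragments on a gene relative to its length and to the total of the library, divided by a size factor per library. The scaling was needed because the FPKM of the third *Znf143 -/-* library had been divided by the total of the second (57895793 fragments on genes against a divisor of 48378188). Libraries held between 38643255 and 57895793 fragments on genes. The targeted gene, listed as *Zfp143*, was at 3.09, 4.45 and 3.68 in the first, the second and the third *Znf143 f/f* library and at 0.16, 0.30 and 0.27 in the *Znf143 -/-* libraries, and all values below are given in this order. The first and the third *Znf143 f/f* libraries lay close together, as did the second and the third *Znf143 -/-* libraries, with an SD of the log2 ratio between libraries of 0.0887 and 0.0992 over genes with at least 2000 fragments, against 0.338 to 0.495 for the 13 other pairs. Whether the libraries of a close pair came from separate mice or from 1 mouse cannot be told from the files, and in the latter case the n, SDs and p-values given for 3 libraries would stand for 2 mice per group. Counts are therefore also given with each close pair averaged into 1 sample (2 against 2) and without the libraries that stand apart, the second *Znf143 f/f* and the first *Znf143 -/-*. The stem cell markers *Procr* (43.2 to 49.7) and *Slamf1* (5.16 to 9.07) were present in all 6 libraries, and of 10 such markers 1 was called higher and 1 lower. Summed levels of 7 myeloid markers were 202 to 268 in *Znf143 f/f* and 264 to 425 in *Znf143 -/-* libraries, those of 10 cell cycle genes were 366 to 387 and 417 to 433, and 3 and 1 genes of these lists, respectively, were higher in *Znf143 -/-* by limma at an adjusted p under 0.05, while none was lower. For 6 megakaryocyte markers the sums were 545 to 627 and 680 to 1021, with 1 gene higher. Of 7 lymphoid markers 6 were listed and 1 was high enough to be tested, *Dntt*, and their sum was 0.199 to 0.363 and 7.23 to 8.06. The part of these cells in the results below was not tested, and in bulk samples fewer cells of a type and less RNA per cell cannot be told apart.

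ZNF143 is known to bind promoters through a site that contains the word ACTACAA. The supplementary list of genes with high ZNF143 on their promoter was drawn in the study from its gene expression and its ChIP-seq of ZNF143. It is therefore not independent of these data. That ChIP-seq was done on lineage- c-kit+ cells, a wider population than the HSLAM cells followed here. On the list are 10 members: *Eef1a1*, *Eif2b4*, *Eif2s2*, *Eif3b*, *Eif3c*, *Eif3d*, *Eif3j1*, *Eif4b*, *Eif4e* and *Eif5*. The promoters of 45 of the 66 members were matched by symbol in RefSeq promoters of GRCm38.p6. ACTACAA or its reverse complement TTGTAGT occurred in the 250 bases before the start of 2 of these 45 (4.44%), against 3.27% of 27025 genes and 23.3% of 1145 listed target genes. Both members that hold the word, *Eif2s2* (a subunit of eIF2) and *Eif3c* (a core subunit of eIF3), are on the target list, and their promoters are shown because no other matched member holds the word. Capitals mark the word, both genes lie on the minus strand, and the sequences read 5′ to 3′ along the gene. The first is chr2:154892915-154893041, with the word beginning 75 bases before the start, and the second is chr7:126566396-126566522, with the reverse complement beginning 96 bases before the start.
Eif2s2: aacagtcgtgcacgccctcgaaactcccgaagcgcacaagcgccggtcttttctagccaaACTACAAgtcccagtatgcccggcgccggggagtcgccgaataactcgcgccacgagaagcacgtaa
Eif3c: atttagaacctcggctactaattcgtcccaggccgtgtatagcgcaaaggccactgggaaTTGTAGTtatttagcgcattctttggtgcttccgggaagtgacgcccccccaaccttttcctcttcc
*Eif2s2* was at 28.9, 46.9 and 32.3 in *Znf143 f/f* and 46.6, 28.97 and 33.1 in *Znf143 -/-* libraries, so its log2 fold change was 0.01 (95% interval -0.56 to 0.58, limma), and the groups overlapped throughout. *Eif3c* was at 89.3, 90.8 and 88.5 and 80.7, 80.2 and 78.8, without overlap, with a log2 fold change of -0.16 (-0.33 to 0.00, adjusted p = 0.216, limma). Neither gene passed the threshold. A second word, a start with C followed by at least 4 pyrimidines, which marks the mRNAs of many translation proteins, was found at the annotated start of 1 of the 45 members (*Eif3f*, 2.22%) and of 3.01% of all genes, and a RefSeq start need not be the start used in these cells.

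No member passed the threshold of the comparison. By limma on log2(scaled FPKM + 0.1), 0 of 65 members tested reached an adjusted p under 0.05, against 1157 of 19296 genes (6.00%). The untested member, the pseudogene *Eif3s6-ps4*, had 0 to 6 fragments in a library. At an unadjusted p under 0.05, 16 members were counted by limma, 8 of them higher and 8 lower in *Znf143 -/-*, against 12.4% of genes higher and 11.8% lower, and with limma voom on recovered fragments 4 members (*Eef1a1*, *Eef2*, *Eif3f* and *Eif4a2*, all lower) passed the adjusted threshold, against 7.26% of genes. Of the 65 members, 11 had all *Znf143 -/-* libraries above all *Znf143 f/f* libraries (genes 15.5%) and 12 had them all below (genes 15.3%). These shares lay near those of all genes. The median log2 fold change over members was 0.04, against 0.01 over all genes tested.

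The size of a difference was bounded for most members. The 95% interval lay within 1 log2 unit of 0 for 60 of 65 members and within 1.5-fold for 43. The 5 exceptions were *Eef1akmt3*, *Eif1-ps2*, *Eif3j1*, *Eif5a2* and *Eif5al3-ps*, all with a mean level under 10. With the close libraries averaged, 57 members lay within 1 log2 unit and 27 within 1.5-fold, 0 were called, and 2 (*Eif4a2* and *Eif5al3-ps*) had an unadjusted p under 0.05, against 9.88% of genes. Calls depended on which libraries were counted as replicates: 10 members passed without the first *Znf143 -/-* library (genes 11.1%), 6 without the second *Znf143 f/f* library (genes 11.8%), and 33 without both (genes 42.3%), when the groups hold only the close pairs. Of the 33, 19 were higher and 14 lower.

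**Figure D1:**
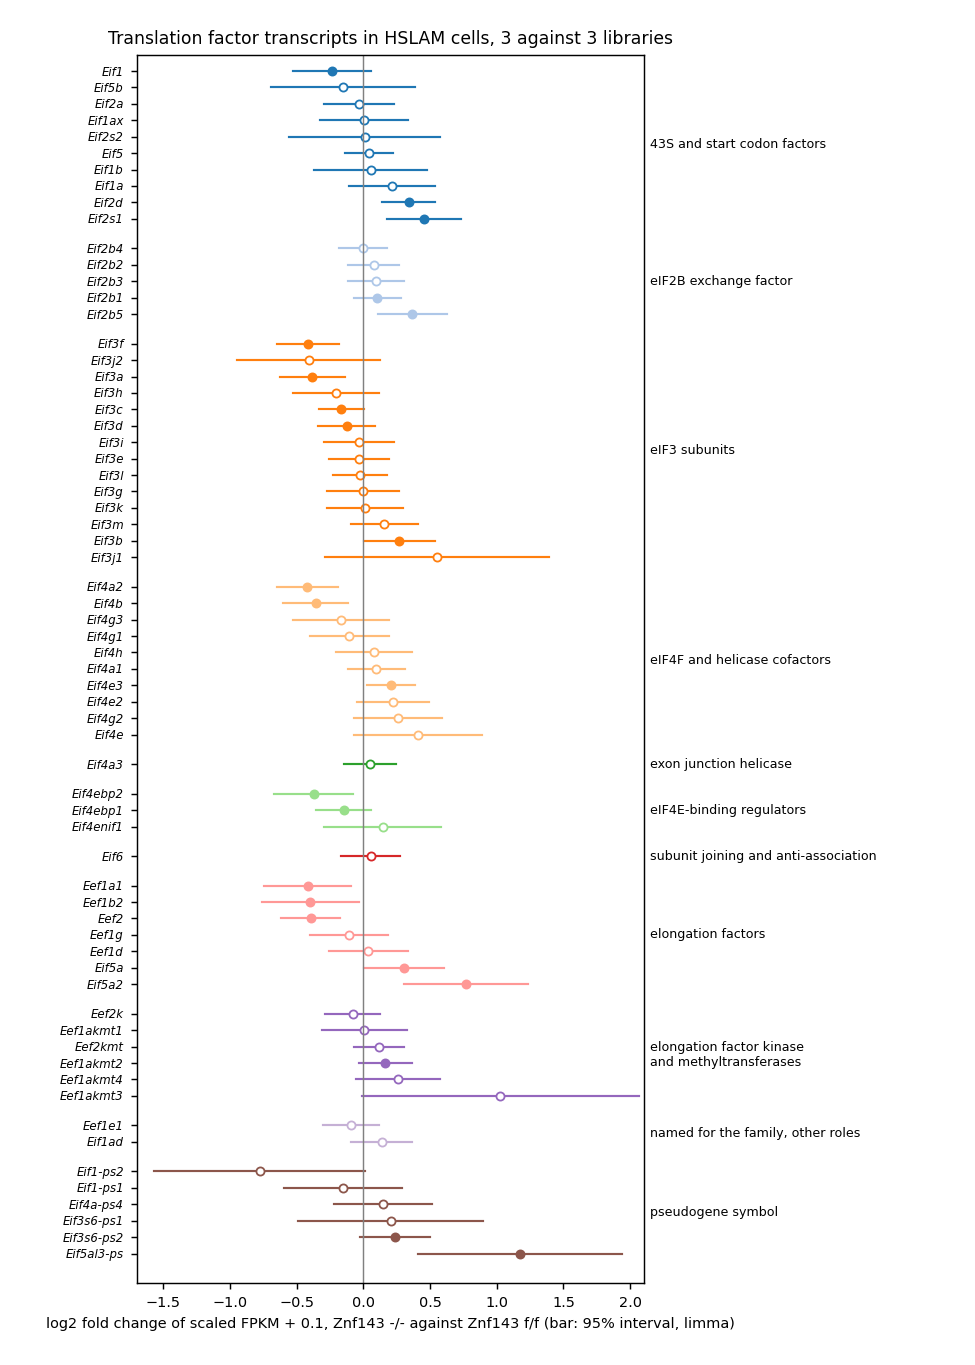
Log2 fold change of scaled FPKM + 0.1 (x axis) for the 65 members tested, ordered by role, with the 95% interval of limma as a bar, from 3 *Znf143 -/-* and 3 *Znf143 f/f* libraries. Filled points are the 23 members whose libraries do not overlap between groups; for 60 members the bar lies within 1 log2 unit of 0.

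Levels spanned a wide range and kept their order. Averaged over libraries, 19 of all 66 members were at 100 or more, 54 at 10 or more and 3 under 1, from 1204 for *Eef1a1* down to 0.169 for *Eef1akmt3*, the lowest member tested, and 0.0348 for the untested *Eif3s6-ps4*. The Spearman rho between mean levels in *Znf143 f/f* and *Znf143 -/-* was 0.991 over members, which share libraries and gene lengths and are not replicates. Together the members took 1.75% to 1.93% of the fragments on genes in each library. The lowest share was that of the first *Znf143 -/-* library (1.75%) and the other 5 libraries lay between 1.90% and 1.93%.

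Of the 7 elongation factors, *Eef1a1*, *Eef2*, *Eef1b2* and *Eef1g* were lower in mean in *Znf143 -/-*, and *Eif5a*, *Eif5a2* and *Eef1d* were higher. *Eef1a1*, which encodes the factor that carries aminoacyl-tRNA to the ribosome and is the highest member, was at 1346, 1452 and 1330.4 in *Znf143 f/f* and 940.4, 1073 and 1084 in *Znf143 -/-*, a fold of 0.749 (log2 -0.42 ± 0.14 SE, adjusted p = 0.128, limma). *Eef2*, the translocase, was at 449, 420.1 and 430.4 and 332, 332 and 324 (log2 -0.40 ± 0.09, adjusted p = 0.058, limma). Both sets of libraries were tight for *Eef2*, with means of 433 ± 14.8 and 329 ± 4.79 (SD, n = 3), and did not overlap. *Eef1b2*, an exchange subunit of eEF1B, was at 287, 332 and 278 and 277, 204 and 205 (log2 -0.40, adjusted p = 0.174, limma). Here the first *Znf143 -/-* library was only just below the lowest *Znf143 f/f* library. The remaining eEF1B subunits overlapped between groups, with *Eef1g* at 215, 267 and 223 and 240.1, 203 and 211 and *Eef1d* at 53.3, 70.7 and 55.4 and 64.8, 58.6 and 59.4.

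*Eif5a*, the second highest member, was at 851, 954 and 854 in *Znf143 f/f* and 1047, 1111 and 1118 in *Znf143 -/-* (log2 0.30 ± 0.13 SE, adjusted p = 0.204, limma), with no overlap. Its paralog *Eif5a2* was near 1, at 0.779, 0.917 and 0.837 and 1.199, 1.81 and 1.57 (log2 0.77 ± 0.19, adjusted p = 0.068, limma). *Eif5al3-ps*, a processed pseudogene named for *Eif5a*, was at 3.92, 4.06 and 4.38 and 5.37, 12.4 and 12.4 (log2 1.17 ± 0.32, adjusted p = 0.084, limma), with the first *Znf143 -/-* library far below the other two. Reads of *Eif5a* and its copies can be shared, and so can those of *Eef1a1*, which has many processed pseudogenes, so these values are uncertain to that extent.

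**Figure D2:**
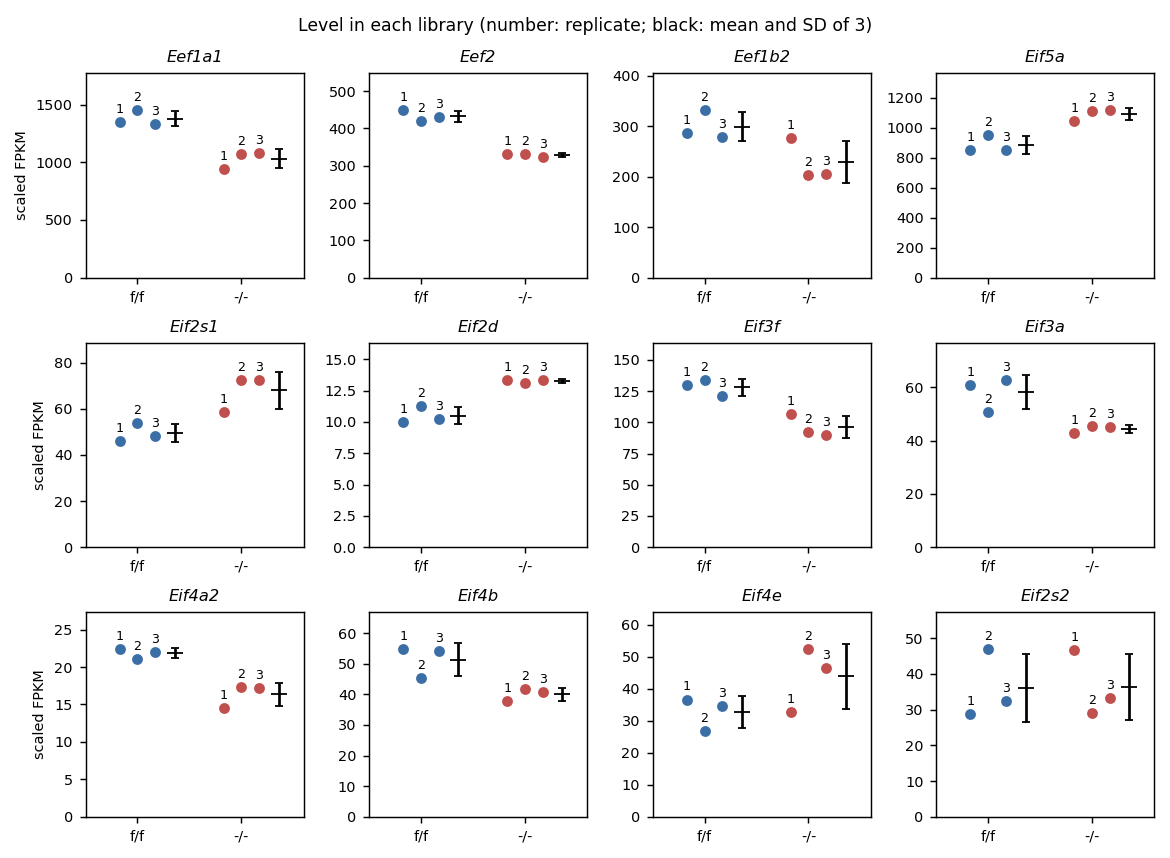
Scaled FPKM (y axis, from 0, its own scale in each panel) of 12 members in each of the 3 *Znf143 f/f* and 3 *Znf143 -/-* libraries, numbered by replicate, with mean and SD in black. *Eef2* lies at 420 to 449 and 324 to 332, whereas *Eif2s2* has 1 high library in each group (46.9 and 46.6).

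In the 43S and start codon group, 2 of 10 members had all *Znf143 -/-* libraries above (genes 15.5%) and 1 had them all below (genes 15.3%), shares that lay near those of all genes. *Eif2s1*, the alpha subunit of eIF2 on which stress kinases act, was at 46.2, 53.7 and 48.4 in *Znf143 f/f* and 58.6, 72.6 and 72.7 in *Znf143 -/-*, a fold of 1.37 (log2 0.45 ± 0.12 SE, adjusted p = 0.071, limma). *Eif2d*, a factor that can deliver tRNA without GTP and acts in ribosome recycling, was at 9.99, 11.3 and 10.2 and 13.4, 13.1 and 13.4 (log2 0.34 ± 0.08, adjusted p = 0.065, limma). The beta subunit of eIF2, *Eif2s2*, given above, overlapped between groups, and its 95% interval contains the log2 fold change of *Eif2s1*. Whether the subunits differ was not tested. *Eif1*, which guards start codon choice and is the highest of the group, was at 532, 633 and 541 and 522, 459 and 467, and its libraries were separated by a narrow gap. *Eif5*, the GTPase-activating partner of eIF2, was at 50.1, 53.97 and 52.2 and 54.9, 51.04 and 54.9 (95% interval -0.14 to 0.23), which is among the tightest bounds of the set.

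Of the 5 eIF2B subunits, which recharge eIF2, 4 had a higher mean in *Znf143 -/-* and 1, *Eif2b4*, a mean that was nearly the same. *Eif2b5*, the catalytic epsilon subunit, was at 26.6, 27.9 and 26.2 and 29.9, 37.6 and 37.2 (log2 0.37 ± 0.11 SE, adjusted p = 0.102, limma). The second and the third *Znf143 -/-* libraries carried most of this difference. *Eif2b4*, the delta subunit and a listed target, was at 30.01, 29.95 and 28.1 and 29.9, 29.8 and 28.2 (log2 -0.00, 95% interval -0.18 to 0.18). *Eif2b2*, the highest of the 5, was at 58.6, 57.98 and 54.5 and 56.9, 62.7 and 60.9, and overlapped. *Eif2b1*, the alpha subunit, was at 44.4, 42.3 and 43.8 and 45.1, 48.4 and 46.99, without overlap and with a log2 fold change of only 0.11, and *Eif2b3* had one of 0.09.

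The 14 eIF3 subunit genes split, with 10 lower and 4 higher in mean and a median log2 fold change of -0.03. This count depends on the scaling. *Eif3e*, *Eif3g*, *Eif3i* and *Eif3l*, counted as lower, had log2 fold changes of -0.03 to -0.00, and lay above 0 on the deposited FPKM. *Eif3f* was at 129, 134 and 121 in *Znf143 f/f* and 106, 92.5 and 89.9 in *Znf143 -/-* (log2 -0.42 ± 0.10 SE, adjusted p = 0.059, limma). *Eif3a*, the largest subunit and part of the core, was at 60.9, 50.8 and 62.8 and 42.8, 45.5 and 44.9 (log2 -0.38 ± 0.10, adjusted p = 0.079, limma). For both genes every *Znf143 -/-* library was lower than every *Znf143 f/f* library. *Eif3b*, another core subunit and a listed target, lay on the other side, at 91.7, 87.2 and 91.3 and 93.1, 118 and 116 (log2 0.27, adjusted p = 0.205, limma), where the first *Znf143 -/-* library was only just above the highest *Znf143 f/f* library. *Eif3d*, a listed target that can bind the cap itself, was at 94.8, 98.1 and 93.5 and 79.4, 91.9 and 91.8. In GENCODE M21 43.3% of its 4968 exon bases are shared with *Gm17638*, but the deposited table gives *Eif3d* a length of 1910 bases, so its reads were counted on another gene model and the overlap in that model is not known. *Eif3h*, the highest subunit gene, was at 182, 225 and 184 and 196, 158 and 160.5, with overlap. The rest, *Eif3e*, *Eif3g*, *Eif3i*, *Eif3k*, *Eif3l* and *Eif3m*, had log2 fold changes between -0.03 and 0.16, and all overlapped.

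*Eif3j1* and *Eif3j2* encode near-identical copies of the loosely bound j subunit. *Eif3j1* was at 2.84, 7.33 and 3.29 and 7.22, 5.11 and 5.99, and *Eif3j2* at 8.39, 4.96 and 8.95 and 5.06, 5.53 and 5.62. The second *Znf143 f/f* library was high for *Eif3j1* and low for *Eif3j2*, like the *Znf143 -/-* libraries. The sum of both was 11.2, 12.3 and 12.2 in *Znf143 f/f* and 12.3, 10.6 and 11.6 in *Znf143 -/-*, so the 2 genes varied in opposite directions around a nearly constant sum. Since reads of such copies may be split between them, the single values are uncertain.

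Of the eIF4F genes and helicase cofactors, 6 of 10 were higher and 4 lower in mean. *Eif4a2*, a paralog of the cap helicase, was at 22.4, 21.1 and 22.02 in *Znf143 f/f* and 14.5, 17.3 and 17.2 in *Znf143 -/-* (log2 -0.42 ± 0.10 SE, adjusted p = 0.055, limma), which was the lowest adjusted p of the 65 members. Its adjusted p with the close libraries averaged was 0.470. The *Eif4a2* gene hosts small nucleolar RNA genes and shares 13.3% of its exon bases with other genes. *Eif4b*, a cofactor of the helicase and a listed target, was at 54.8, 45.2 and 54.2 and 37.7, 41.6 and 40.7 (log2 -0.36 ± 0.10, adjusted p = 0.095, limma). Neither overlapped. *Eif4a1*, the main helicase and highest of the group, was at 163, 149 and 166 and 161, 177 and 174, with overlap, and *Eif4h*, the other cofactor, had a log2 fold change of 0.08.

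*Eif4e*, the cap-binding protein and a listed target, was at 36.7, 26.9 and 34.6 and 32.7, 52.4 and 46.6 (log2 0.41, 95% interval -0.07 to 0.89, adjusted p = 0.273, limma). The first *Znf143 -/-* library lay among the *Znf143 f/f* libraries. Its paralogs *Eif4e2*, at 15.2, 19.8 and 16.8 and 20.96, 19.3 and 20.01, and *Eif4e3*, at 13.9, 13.5 and 13.9 and 15.4, 15.9 and 16.4, are cap-binding proteins of lower affinity. Of these, *Eif4e3* had no overlap (log2 0.21, adjusted p = 0.156, limma). The scaffold *Eif4g1* was at 18.4, 14.03 and 18.1 and 14.6, 16.2 and 15.9, its less abundant paralog *Eif4g3* at 2.62, 3.55 and 2.86 and 2.91, 2.58 and 2.48, and *Eif4g2*, a relative that does not bind eIF4E, at 40.9, 34.4 and 43.8 and 40.3, 51.2 and 51.2. All 3 overlapped.

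The eIF4E-binding proteins hold eIF4E away from eIF4G when mTOR signalling is low. *Eif4ebp2* was at 15.5, 13.6 and 14.7 in *Znf143 f/f* and 9.67, 12.8 and 11.4 in *Znf143 -/-* (log2 -0.37 ± 0.12 SE, adjusted p = 0.129, limma). *Eif4ebp1*, the higher of the pair, was at 128, 137 and 124 and 124, 114 and 113. In both the groups did not overlap, and for *Eif4ebp1* the first *Znf143 -/-* library all but met the third *Znf143 f/f* library. *Eif4enif1*, which shuttles eIF4E into the nucleus, was at 7.68, 5.21 and 7.33 and 6.19, 8.14 and 7.94, with overlap.

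Members outside these complexes were mostly level. *Eif4a3*, the helicase of the exon junction complex, was at 169, 161 and 165 and 164, 177 and 170.5, and *Eif6*, which keeps free 60S subunits from joining, at 118, 135 and 114 and 129.7, 125 and 126. *Eef2k*, the kinase that inactivates eEF2, had a log2 fold change of -0.08 (-0.29 to 0.13). Of the methyltransferases, *Eef1akmt1* was the highest, at 97.7, 125 and 96.7 and 119, 101.4 and 99.6. *Eef1akmt2* was at 37.6, 42.7 and 39.9 and 43.2, 44.5 and 46.9, without overlap. *Eef1akmt3* was barely present, at 0.0384, 0.135 and 0.0418 and 0.467, 0.128 and 0.203, and *Eef1akmt4* shares 31.7% of its exon bases with *Alg3* and *Gm49333*. Of *Eif1ad* and *Eef1e1*, which are named for the family and have other roles, *Eif1ad* was the higher, at 43.6, 49.9 and 43.5 and 54.6, 48.2 and 47.8, and the log2 fold changes were 0.14 and -0.09. The highest pseudogene, *Eif3s6-ps2*, was at 22.2, 29.1 and 25.04 and 29.9, 30.4 and 29.1, and *Eif4a-ps4* had a log2 fold change of 0.15.

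FPKM are per length, so related genes can be set side by side within a library, and such a share does not depend on the scaling. In 12 paralog shares, exact two-sided permutation tests of 3 against 3 libraries can give no p below 0.1, and the smallest value adjusted over the 12 was 0.24. *Eif4a1* made up 87.9%, 87.6% and 88.3% of the summed *Eif4a1* and *Eif4a2* level in *Znf143 f/f* and 91.7%, 91.1% and 91.0% in *Znf143 -/-* (87.9 ± 0.36 and 91.3 ± 0.40, SD, n = 3, exact permutation p = 0.1). This was a shift of 3.33 percentage points, larger than the SD of either group. Within the *Eif4g* genes the share of *Eif4g1* was 29.8%, 27.005% and 27.9% against 25.3%, 23.1% and 22.8%, and that of *Eif4g2* was 66.0%, 66.2% and 67.7% against 69.7%, 73.2% and 73.6%. Both were separated in all 6 libraries, although none of the *Eif4g* genes was by itself. With *Eif4g3* at only 5.16% and 4.09% on average, these 2 shares nearly complement each other and are not separate results. *Eif1* held 80.7%, 77.1% and 80.0% of *Eif1* and *Eif1b* against 74.5%, 77.1% and 75.7%, where the lowest *Znf143 f/f* and highest *Znf143 -/-* values nearly met. *Eif5a* held 99.90% and 99.86% on average of *Eif5a* and *Eif5a2*. The shares of *Eif4e* (51.2 ± 5.74% and 54.5 ± 6.41%), *Eif4ebp1* of both binding proteins (89.9 ± 0.98% and 91.2 ± 1.45%), *Eif1a* with *Eif1ax* (56.7 ± 3.76% and 60.1 ± 7.35%) and *Eif3j1* overlapped.

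**Figure D3:**
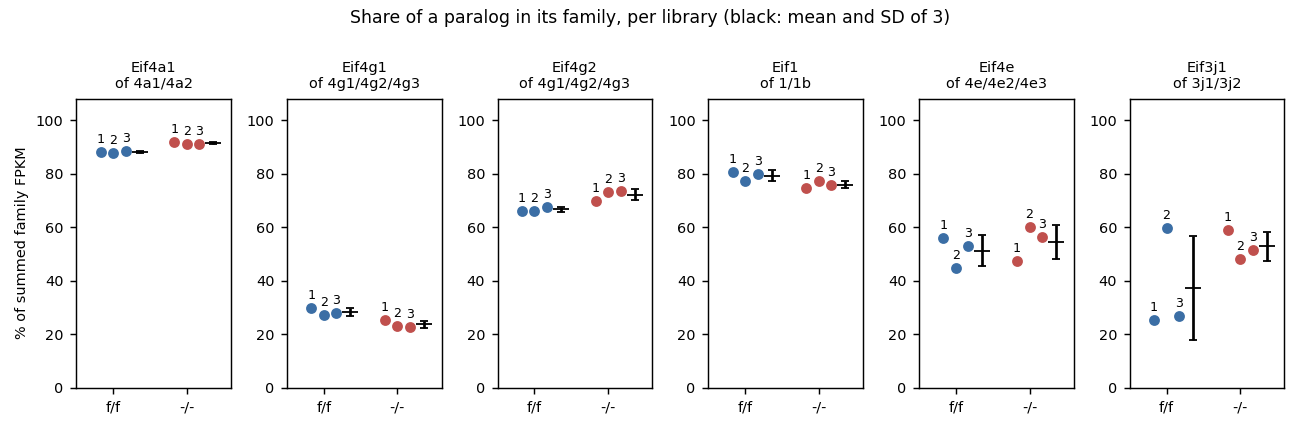
Share of 6 paralogs in the summed FPKM of their family (y axis, percent from 0) in each of 3 *Znf143 f/f* and 3 *Znf143 -/-* libraries, numbered by replicate, with mean and SD in black. The *Eif4a1* share is 87.6% to 88.3% and 91.0% to 91.7%, and the *Eif3j1* share is 59.7% in the second *Znf143 f/f* library against 25.3% and 26.9% in the other two.

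*Eif1a* and *Eif1ax*, which encode eIF1A, were at 60.2, 58.8 and 62.9 against 57.6, 79.7 and 75.98 and at 41.4, 53.4 and 44.6 against 53.4, 40.9 and 45.8. *Eif1a* was highest in the second and the third *Znf143 -/-* libraries, whereas *Eif1ax* and *Eif1b*, at 127, 188 and 136 and 179, 137 and 149, were highest in the libraries that stand apart. The same libraries were high for *Eif5b*, the subunit joining GTPase, at 8.94, 13.9 and 9.67 and 12.5, 7.83 and 8.95. *Eif2a*, an alternative tRNA carrier, showed no such pattern, at 11.3, 12.1 and 11.96 and 9.95, 12.4 and 12.3.

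The libraries that stand apart deviated alike across the members. The deviation of the second *Znf143 f/f* library from the mean of the other 2 of its group, and that of the first *Znf143 -/-* library from its other 2, had a Pearson r of 0.63 over 65 members, against 0.09 over all 19296 genes. The direction was shared by 51 of 65 members (78.5%), against 60.8% of genes. The genes were not matched to the members in level. Of the 19296 genes, 12558 had a mean FPKM of at least 1, whereas 54 of 66 members were at 10 or more. Members higher by at least 0.25 on the log2 scale in both libraries were *Eef1akmt3*, *Eif1ax*, *Eif1b*, *Eif2s2*, *Eif3h*, *Eif3j1* and *Eif5b*. Members lower by at least as much in both were *Eif4e*, *Eif4enif1*, *Eif4g2*, *Eif4h* and the pseudogene *Eif4a-ps4*. All members share these libraries, so this is a description with no test. Summed levels of 82 cytosolic ribosomal protein genes moved with it, being 79502 in the second *Znf143 f/f* and 67735 in the first *Znf143 -/-* library against 39683 to 52156 in the other 4, and their part in the members' values was not tested. None of the 82 passed limma at an adjusted p under 0.05. The second *Znf143 f/f* library was also highest for 7 erythroid markers (summed level 211, against 75.8 to 85.0 in the other 5 libraries).

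**Figure D4:**
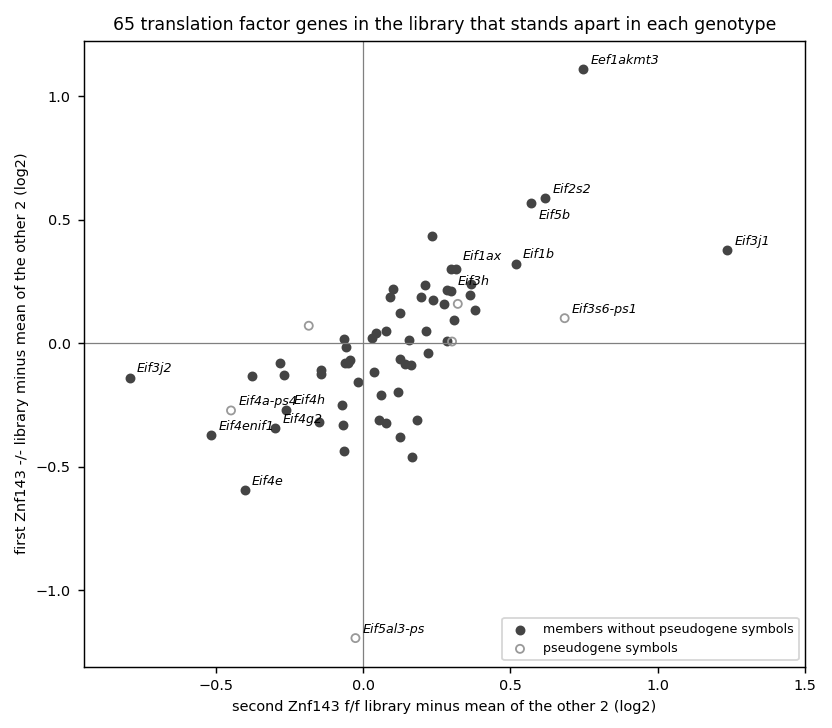
Deviation of the second *Znf143 f/f* library (x axis, log2) and of the first *Znf143 -/-* library (y axis, log2) from the mean of the other 2 libraries of the same genotype, 1 point per member, for 65 members. Of these, 51 have the same sign on both axes, and r is 0.63.

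Of 50 further translation genes, in lists of release and recycling factors, poly(A) binding and start regulators, mTOR signalling, hypusine and diphthamide enzymes, mitochondrial factors and selenocysteine elongation, 3 passed limma at an adjusted p under 0.05, against 6.00% of genes, and all 3 were among the 9 mitochondrial factors. *Mtif2*, the mitochondrial initiation factor that brings the initiator tRNA and a listed target, was at 10.2, 11.6 and 9.89 in *Znf143 f/f* and 6.00, 5.34 and 5.30 in *Znf143 -/-* (log2 -0.91 ± 0.10 SE, adjusted p = 0.007, limma). *Mtrf1*, a mitochondrial release factor and also a listed target, was at 7.55, 7.70 and 7.84 and 4.01, 4.12 and 4.59 (log2 -0.85 ± 0.10, adjusted p = 0.007, limma). Neither had overlapping libraries, and all *Znf143 -/-* values lay within a narrow range. *Mtrf1l*, another mitochondrial release factor, was higher, at 4.29, 4.63 and 4.28 and 5.99, 5.96 and 6.35 (log2 0.46 ± 0.09, adjusted p = 0.039, limma). With the close libraries averaged, the adjusted p were 0.177, 0.189 and 0.534, so none of the 3 passed at 2 against 2. On the FPKM as deposited only *Mtif2* did (adjusted p = 0.025, limma).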

How the data were processed

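Only the RNA-seq table was used, and ChIP-seq and HiC samples were not analysed here. Libraries had been made with SMART-Seq v4. The authors used TrimGalore on the read pairs, STAR for alignment to GRCm38 and FeatureCounts for counting, and deposited FPKM for each library. Counting strand and the treatment of multi-mapped reads are not given in the sources used here. The deposited columns of the authors' own comparison (mean normalized count, log2 fold change with its standard error, test statistic, p-value and adjusted p-value) were not used. The members and gene lists were chosen with earlier results of these data known. Libraries were grouped by their labels.

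FPKM times gene length gave whole fragments, within 0.05, for 138677 of 138696 values (99.986%). Deposited FPKM were divided by median-of-ratios size factors (0.906 to 1.2008), with the geometric mean set to 1. Genes with a mean deposited FPKM of at least 0.1 were tested on log2(scaled FPKM + 0.1) with limma 3.58.1 in R 4.3.3 (eBayes with a variance trend), two-sided, with Benjamini-Hochberg adjustment over all 19296 genes. A fold change on this scale understates the change of low genes. The depth was 38643255 to 57895793 fragments on genes, and whether depth or the spread between libraries limited the members more was not tested. The study calls the libraries biological replicates from pairs of male littermates, and neither it nor the labels say which libraries are a pair. The main test therefore left the pairs out. Its p-values set the difference between groups against the spread between these libraries within a group. Library pairs were compared by a chi-square per gene over genes with at least 20 summed fragments, which was 5.10 and 7.02 for the close pairs and 80.2 to 210 for the others. The close pairs differed by more than counting noise, which repeat libraries from 1 mouse would also do, so this does not show that they are separate mice. They were kept as separate libraries in the main test. Values in every library are given for members on the list of high promoter ZNF143, the highest member of each role, members of paralog families, members that did not overlap between groups or stood near the threshold, and pathway genes at an adjusted p under 0.05. The members that did not overlap were added after their values were seen, as were *Eef1g*, *Eef1d*, *Eif4enif1*, *Eif5b*, *Eif2a* and *Eef1akmt3*. Coordinates and exon overlaps come from GENCODE M21 on GRCm38, which held all 66 members, and promoters from RefSeq. For 9 members, *Eif3d* and *Eif3s6-ps2* among them, the deposited gene length differed from the exon bases of that annotation by over 2%. Other steps ran in Python 3.11.15 with scipy 1.17.1, pandas 2.3.3 and numpy 2.4.6, and plots were drawn with matplotlib 3.10.9.

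The fit was tested on simulated fragments of the *Znf143 -/-* against *Znf143 f/f* comparison with 50 genes changed at each fold. It recovered 5 of 50 at 1.5-fold, 34 at 2-fold, 48 at 3-fold and 49 at 4-fold, and 6 of 142 calls among 19186 genes tested were unchanged genes. The changed genes had a mean FPKM of at least 1. All genes were drawn with the same dispersion and the libraries independently, without the close pairs of the real libraries. These rates therefore need not hold for the real libraries.

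The alternatives tried were FPKM as deposited, a division of the third *Znf143 -/-* library by the fragments it holds, a pseudocount of 0.01 or of 1, a filter at a mean FPKM of 1 or none at all, limma voom, no variance trend, a replicate block, shares of recovered fragments for the paralogs, and each library left out. Chosen after seeing the data were the averaging of close libraries and the fit without both libraries that stand apart.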

Additional observations from a re-analysis of the deposited data

How the results depend on the processing

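The number of members called was 0 of 65 in the main test and 0 on the deposited FPKM, with other pseudocounts, without the filter, without the variance trend and with close libraries averaged. It was 1 after division of the third *Znf143 -/-* library by the fragments it holds (*Eif3f*), 1 at a mean FPKM of at least 1 (*Eef2*), 4 with limma voom, 33 without both libraries that stand apart, and 0 to 10 when 1 library was left out. Genes called went from 1157 to 45 with close libraries averaged, to 8151 without both libraries that stand apart, and to 225 to 2283 when 1 library was left out. The cause was not tested. On the deposited FPKM 833 genes were called, 63.5% of them higher, against 50.1% on the scaled FPKM. That scale moved the median of all genes to 0.11 and the median member to 0.15 (log2), against 0.01 and 0.04, and with 1 library left out the median member was at -0.0342 to 0.0686. Of the pathway lists 1 gene was called on the deposited FPKM, against 3. Over 17 alternatives for each of the 23 members that did not overlap, 351 of 391 values kept their direction and their side of the threshold, 40 passed it newly and 0 reversed. These members were chosen for separated libraries, so leaving out or averaging libraries could not reverse them. None was called in the main test, so none could lose a call. Among the members that overlapped, the sign changed in up to 6 alternatives (*Eif3g*). In recovered fragments the shift of a paralog share, in percentage points, went from 3.33 to 3.91 for *Eif4a1*, from 1.31 to 2.60 for *Eif4ebp1* and from -0.044 to -0.093 for *Eif5a*. With 1 library left out, the *Eif4a1* shift was 3.10 to 3.51, that of *Eif4e* 0.056 to 6.82 and that of *Eif3j1* 9.54 to 26.7, against 3.28 and 15.5 for the last 2, and omitting the second *Znf143 f/f* library turned that of *Eif4e2* from -1.74 into 1.09.

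Same-numbered libraries had correlations of -0.094, -0.088 and 0.035 in their deviations from the group means over genes. The libraries that stand apart dominate these deviations. The second *Znf143 f/f* library had an r of -0.838 and -0.751 with the other 2 of its group, and the first *Znf143 -/-* library one of -0.846 and -0.707. The correlations therefore cannot show whether replicate numbers mark littermate pairs. With the replicate block, 191 genes and 0 members were called. The tested members with the fewest fragments in their lowest library were *Eef1akmt3* (4 to 56 over the libraries) and *Eif1-ps2* (5 to 14).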
